A study of Mus musculus with 6 samples.

Results

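The genes described here are 10 genes of scavenger recognition and efferocytosis in the lungs of TNF-Tg and WT mice, chosen by name from the 49568 gene symbols of the count table. They were Msr1, Cd36, Stab1 and Scarb1, which are scavenger receptors, and Timd4, Mertk, Axl, Cd5l, Gas6 and Mfge8, which take part in the recognition of apoptotic cells and debris. Timd4, Mertk and Axl are membrane receptors, while Cd5l, Gas6 and Mfge8 are secreted proteins. All 10 had a single entry in the table, and all 10 passed the filter on low counts.

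Bulk RNA-sequencing was performed on lungs of 3 TNF-Tg and 3 WT mice, with 1 library per mouse, to compare gene expression between the genotypes. The mice were 4 months old, female and on a C57BL/6 background. TNF-Tg mice carry 1 copy of a human TNF gene, and WT mice are their littermates without it. The promoter of the transgene is not given in the sources used here, the mouse gene table does not measure the human transgene, and the labels add the cell type "primary cells" to what is otherwise described as lung tissue. Sftpc, the surfactant protein that marks alveolar type 2 cells, had a mean of 321402 normalized counts in TNF-Tg lungs and 462077 in WT lungs, as a check that the libraries hold lung RNA.

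Scavenger receptors are surface proteins that bind modified lipoproteins, polyanions and cell debris, and efferocytosis is the uptake of dying cells by phagocytes. A dying cell exposes phosphatidylserine, which is bound either directly, as by Timd4, or through secreted bridging proteins. Gas6 bridges phosphatidylserine to the TAM receptor tyrosine kinases Tyro3, Axl and Mertk, and Mfge8 bridges it to integrins. Alveolar macrophages of the healthy lung clear dying cells and surfactant, while Cd36 and Scarb1 are also found on endothelial cells, where they take part in the uptake of fatty acids and lipoproteins.

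Total counts per lung ranged from 25396923 to 32529408, so that 3 counts, taken as the smallest detectable number, stood at 0.0882 to 0.131 CPM (counts scaled to library size). This floor covers counting error only. Normalized counts are counts scaled to the TMM-adjusted library size and brought to its mean over the 6 lungs. Replicates of a genotype differed by more than sampling noise. In TNF-Tg replicate 1, the gene Gm42418 took 5.22% of all counts (0.0774% to 0.274% elsewhere), and WT replicate 1 held 4294 CPM of squamous epithelium and skeletal muscle genes, against 10.8 to 24.9 CPM in the others.

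TNF-Tg lungs had more transcript of 7 of the 10 genes and less of 2 at an adjusted p under 0.05 (edgeR, quasi-likelihood test, Benjamini-Hochberg over all 19199 genes tested), and Gas6 did not pass. The background was high, since 47.4% of all genes tested passed, 24.0% as higher and 23.4% as lower. The median log2 fold change of the 10 genes was 0.92, beside 0.03 over all genes tested. In normalized counts the TNF-Tg and WT lungs did not overlap for any of the 10 genes, 7 being higher and 3 lower in TNF-Tg. Of all genes tested, 58.7% were also without overlap, 30.5% higher and 28.2% lower. The scavenger receptors split evenly, with Msr1 and Stab1 higher and Cd36 and Scarb1 lower. Of the 6 efferocytosis genes, 5 were higher.

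**Figure D1:**
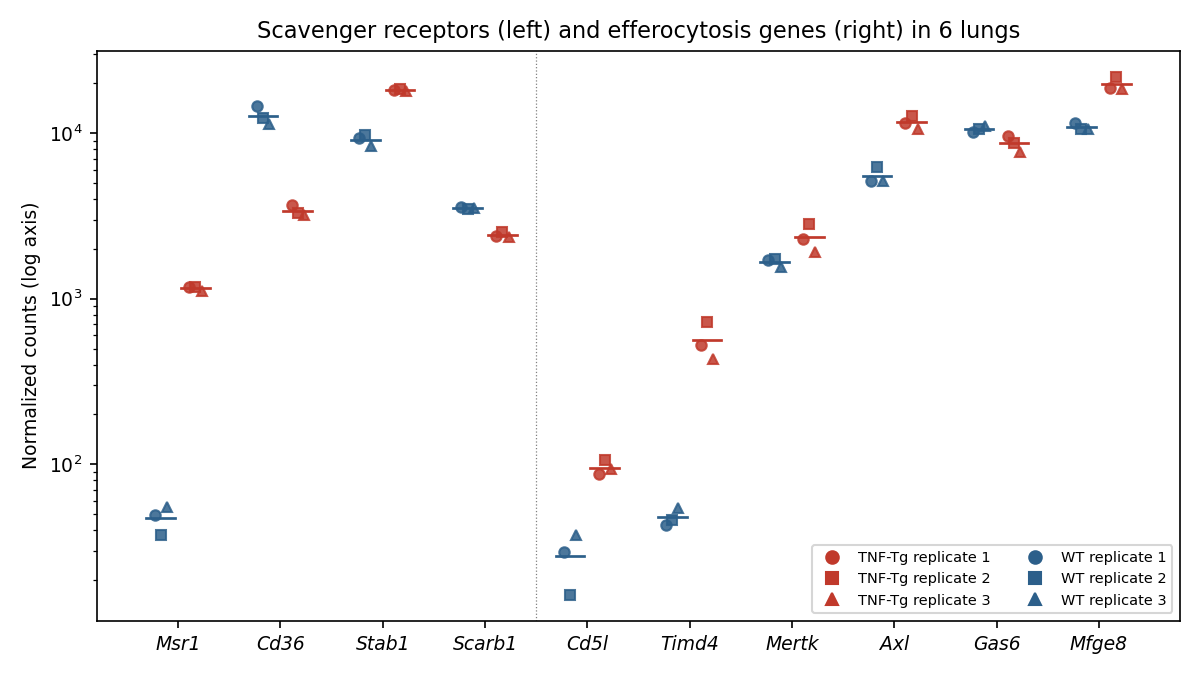
Normalized counts on a log axis for each of the 10 genes in the 3 TNF-Tg and 3 WT lungs, 1 point per lung, with lines at the group means. The groups are apart for each gene, by the widest margin for Msr1 (1119 to 1176 against 37.4 to 55.1) and by a narrow one for Gas6 (7650.1 to 9627 against 10206 to 11071).

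Msr1 is class A scavenger receptor 1, a trimeric macrophage receptor for modified low density lipoprotein and bacterial polyanions (chromosome 8 of GRCm38, 39581685 to 39642673, minus strand). It had 1171, 1176 and 1119 normalized counts in the 3 TNF-Tg lungs and 49.7, 37.4 and 55.1 in the 3 WT lungs. The TNF-Tg lungs lay close to each other and far above each WT lung. Msr1 rose 24.4-fold, from 47.4 ± 9.08 to 1155 ± 31.7 (mean ± SD, n = 3), or by 4.60 on the log2 scale (standard error 0.16, adjusted p = 2.72e-06). By p-value it ranked 13 of the 19199 genes tested, and 1.20% of them had a larger log2 fold change in size. As this is whole lung, more cells of a type and more RNA per cell cannot be told apart for this or any other gene described here.

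Stab1 encodes stabilin-1, a receptor of macrophages and sinusoidal endothelium that takes up modified lipoproteins and matrix proteins and binds phosphatidylserine (chromosome 14, 31139013 to 31168641, minus strand). It had 18189, 18455 and 17840 normalized counts in TNF-Tg lungs and 9303, 9752 and 8362 in WT lungs. The TNF-Tg lungs were again tightly grouped. Stab1 rose 1.99-fold, from 9139 ± 709 to 18161 ± 309 (log2 fold change 0.99, standard error 0.11, adjusted p = 0.000231). Its exons overlap those of Nt5dc2 on the other strand over 112 bases, and the strand setting of the counting is not given in the sources used here.

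Cd36, a class B receptor for oxidized lipoproteins, long-chain fatty acids and thrombospondin (chromosome 5, 17781690 to 17888801, minus strand), went the other way. It had 3664, 3310.3 and 3209.6 normalized counts in TNF-Tg lungs and 14601, 12348 and 11344 in WT lungs. No TNF-Tg lung reached the level of any WT lung. Cd36 fell 3.76-fold, from 12764 ± 1668 to 3395 ± 239 (log2 fold change -1.91, standard error 0.13, adjusted p = 2.18e-05). Without WT replicate 1, the highest lung for Cd36, the log2 fold change was -1.83. Scarb1, the class B receptor for high density lipoprotein (chromosome 5, 125277087 to 125341094, minus strand), had 2384, 2539 and 2350.5 normalized counts in TNF-Tg lungs and 3554, 3476 and 3517 in WT lungs. The WT lungs were nearly level. Scarb1 fell 1.45-fold, from 3516 ± 38.9 to 2424 ± 100.5 (log2 fold change -0.54, standard error 0.08, adjusted p = 0.00132).

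Genes of heart muscle and fat cells, other tissues in which Cd36 is abundant, were also compared between the lungs. The 4 heart muscle markers were each lower, beside 23.4% lower over all genes tested, with a sum of 225 to 285 CPM in TNF-Tg and 889 to 1218 CPM in WT lungs. Of the fat cell markers, 1 of 4 tested was lower, near that share, and their sums overlapped between the groups. These were 9.60, 6.16 and 111 CPM in the TNF-Tg lungs and 145, 74.5 and 150 CPM in the WT lungs. The part of heart muscle and fat cells in the lower Cd36 was not tested.

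Timd4 (TIM-4) is a phosphatidylserine receptor of resident macrophages that tethers dying cells (chromosome 11, 46810800 to 46844332, plus strand). It had 526, 721 and 434 normalized counts in TNF-Tg lungs and 43.0, 46.0 and 54.2 in WT lungs. The TNF-Tg lungs were more widely spread than for Msr1, and each was far above the WT lungs. Timd4 rose 11.7-fold, from 47.7 ± 5.80 to 560 ± 146 (log2 fold change 3.55, standard error 0.23, adjusted p = 1.75e-05). Cd5l encodes the apoptosis inhibitor of macrophages, a secreted protein of the scavenger receptor cysteine-rich family that macrophages release (chromosome 3, 87357881 to 87371073, plus strand). Its raw counts were low, with 66, 102 and 99 in TNF-Tg lungs and 31, 17 and 42 in WT lungs. Cd5l rose 3.44-fold, from 27.7 ± 10.6 to 95.3 ± 9.37 normalized counts (log2 fold change 1.77, standard error 0.31, adjusted p = 0.00221), with the largest standard error of the 10 genes.

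The promoters of Cd5l, Timd4, Stab1 and Cd36 are shown because these genes changed and share TGCTGA, the core of a Maf recognition element, in the 250 bases before their RefSeq start. Maf factors are transcription factors of macrophages, among other cells. The sequences are from RefSeq (GRCm38.p6), 5′ to 3′ along the gene. Capitals mark TGCTGA, the nuclear receptor core AGGTCA, of which a full element holds a pair, and the Sp1 element GGGCGG, each searched on both strands. The windows are chr3:87357631-87357880 (plus strand) for Cd5l, chr11:46810549-46810798 (plus) for Timd4, chr14:31168642-31168891 (minus) for Stab1 and chr5:17835897-17836146 (minus) for Cd36. The RefSeq start used for Cd36 lies inside the GENCODE M21 span given above, which also holds transcripts that start further upstream.
Cd5l: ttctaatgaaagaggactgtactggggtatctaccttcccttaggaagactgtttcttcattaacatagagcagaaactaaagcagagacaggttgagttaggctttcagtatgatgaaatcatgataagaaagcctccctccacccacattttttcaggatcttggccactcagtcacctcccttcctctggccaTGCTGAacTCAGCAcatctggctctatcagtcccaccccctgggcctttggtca
Timd4: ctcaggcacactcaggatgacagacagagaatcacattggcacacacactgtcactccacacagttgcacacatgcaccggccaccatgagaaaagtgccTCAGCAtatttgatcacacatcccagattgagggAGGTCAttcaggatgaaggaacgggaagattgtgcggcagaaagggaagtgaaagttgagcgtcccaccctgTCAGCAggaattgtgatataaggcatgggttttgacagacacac
Stab1: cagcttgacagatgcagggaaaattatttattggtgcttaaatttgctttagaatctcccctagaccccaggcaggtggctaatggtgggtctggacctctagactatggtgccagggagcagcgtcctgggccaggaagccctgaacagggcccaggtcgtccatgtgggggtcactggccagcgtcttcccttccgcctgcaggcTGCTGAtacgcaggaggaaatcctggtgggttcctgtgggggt
Cd36: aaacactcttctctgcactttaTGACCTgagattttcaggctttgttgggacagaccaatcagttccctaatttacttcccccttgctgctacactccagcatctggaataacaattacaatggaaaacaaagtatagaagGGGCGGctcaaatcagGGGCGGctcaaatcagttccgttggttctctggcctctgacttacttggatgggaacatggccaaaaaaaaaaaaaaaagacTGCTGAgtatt

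TGCTGA occurred in 4 of the 8 members matched in the promoter table and in 15.8% of its 27018 promoters. In Cd5l it stood on both strands as an inverted pair with 2 bases between, starting 54 bases before the gene, an arrangement found in 2 promoters of the table (0.0074%), those of Cd5l and Gm33479. This pair was searched for after the Cd5l promoter had been read. AGGTCA was present in Cd36 and Timd4 and in 13.8% of all promoters. GGGCGG was present in Mertk, Cd36, Axl, Mfge8 and Gas6 and in 32.9% of all promoters. The PU.1 element GAGGAAGT (2.44% of all promoters), the AP-1 element TGANTCA (6.87%), the NF-kB element, GGGA and TTCC with 2 bases between (1.17%), and the interferon-activated element TTCNNNGAA (7.18%) were not found in the 8 promoters. Cd36 fell while Cd5l, Timd4 and Stab1 rose, so the genes with TGCTGA did not share a direction, and no binding was measured. Msr1 and Scarb1 were not matched.

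Axl, the TAM receptor tyrosine kinase with Gas6 as its ligand (chromosome 7, 25757273 to 25788705, minus strand), had 11585, 12717 and 10594 normalized counts in TNF-Tg lungs and 5110.5, 6206 and 5147 in WT lungs. The lowest TNF-Tg lung was well above the highest WT lung. Axl rose 2.12-fold, from 5488 ± 622 to 11632 ± 1062 (log2 fold change 1.08, standard error 0.13, adjusted p = 0.000292). Mertk, the TAM receptor of macrophages that drives engulfment (chromosome 2, 128698956 to 128802894, plus strand), had 2284, 2836 and 1912 normalized counts in TNF-Tg lungs and 1702, 1743 and 1551 in WT lungs. Here the margin between the groups was small beside the spread of the TNF-Tg lungs. Mertk rose 1.41-fold, from 1666 ± 101 to 2344 ± 465 (log2 fold change 0.49, standard error 0.14, adjusted p = 0.0225).

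The call for Mertk lay close to the cutoff. It was lost when any single lung other than TNF-Tg replicate 3 was left out (log2 fold change 0.33 to 0.52, adjusted p = 0.0528 to 0.061), and without both TNF-Tg replicate 1 and WT replicate 1 (log2 fold change 0.49, adjusted p = 0.102). Without TNF-Tg replicate 3 the log2 fold change was 0.61 (adjusted p = 0.00677). In TNF-Tg replicate 2, Mertk, Timd4 and 6 others of the 10 genes were at their highest among TNF-Tg lungs, and the summed alveolar macrophage markers were also highest there, at 4032 CPM against 2807 and 2487 CPM. Of the 4032 CPM, 3158 were Marco alone, and without Marco the sums were 879, 875 and 848 CPM in TNF-Tg replicates 1, 2 and 3. The general macrophage sum was lowest in that lung (8374 against 9264 and 8857 CPM), most of it Lyz2, and without Lyz2 it was highest there (2109 against 1994 and 1750 CPM). A single gene thus set the order of either sum, and the sum for interstitial macrophages and monocytes was between the others (1434 against 1572 and 1229 CPM). The part of that lung's macrophage content in these values was not tested.

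Gas6, the vitamin K-dependent ligand of the TAM receptors (chromosome 8, 13465374 to 13494490, minus strand), had 9627, 8770.5 and 7650.1 normalized counts in TNF-Tg lungs and 10206, 10553 and 11071 in WT lungs. Each TNF-Tg lung was below each WT lung, TNF-Tg replicate 1 only slightly. The means were 8682 ± 991 and 10610 ± 435 and they differed by -0.29 on the log2 scale (standard error 0.12, adjusted p = 0.075), which did not pass the cutoff. It passed with DESeq2 (log2 fold change -0.32, adjusted p = 0.0209) and without TNF-Tg replicate 1 (log2 fold change -0.41, adjusted p = 0.0461). The exons of Gas6 overlap those of Tmem255b on the other strand over 34 bases. Mfge8, the bridging protein also known as lactadherin (chromosome 7, 79133768 to 79149060, minus strand), had 18813, 21921 and 18542 normalized counts in TNF-Tg lungs and 11586, 10626 and 10519 in WT lungs. The groups were well apart. Mfge8 rose 1.81-fold, from 10910.2 ± 587 to 19758 ± 1877 (log2 fold change 0.86, standard error 0.12, adjusted p = 0.00073).

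Set against each other within a lung, per kilobase of merged exons, the ligand and its receptors shifted. Gas6 stood 1.94 ± 0.17 above Axl on the log2 scale in WT lungs and 0.56 ± 0.14 in TNF-Tg lungs (mean ± SD, n = 3), a change of -1.38. Per length, Gas6 was above Axl in each lung, by less in TNF-Tg. Gas6 stood 3.44 ± 0.14 above Mertk in WT and 2.67 ± 0.24 in TNF-Tg lungs, a change of -0.77. Axl stood 1.50 ± 0.12 above Mertk in WT and 2.11 ± 0.15 in TNF-Tg lungs, a change of 0.61. Between the bridging proteins, the difference Mfge8 minus Gas6 was -0.84 ± 0.13 in WT and 0.31 ± 0.19 in TNF-Tg lungs, a change of 1.15, so that per length Mfge8 was below Gas6 in each WT lung and above it in each TNF-Tg lung. The changes do not depend on length. The sign of the mean does for Gas6 minus Axl in TNF-Tg lungs and for Mfge8 minus Gas6 in WT lungs. In CPM without correction for length, Gas6 minus Axl was 0.96 ± 0.17 in WT and -0.42 ± 0.14 in TNF-Tg lungs, and Mfge8 minus Gas6 was 0.04 ± 0.13 and 1.19 ± 0.19. In all 4 comparisons the groups did not overlap, and each had p = 0.1 by a two-sided exact permutation test over lungs, also after adjustment over the 4, which is the smallest p that 3 against 3 lungs can give.

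**Figure D2:**
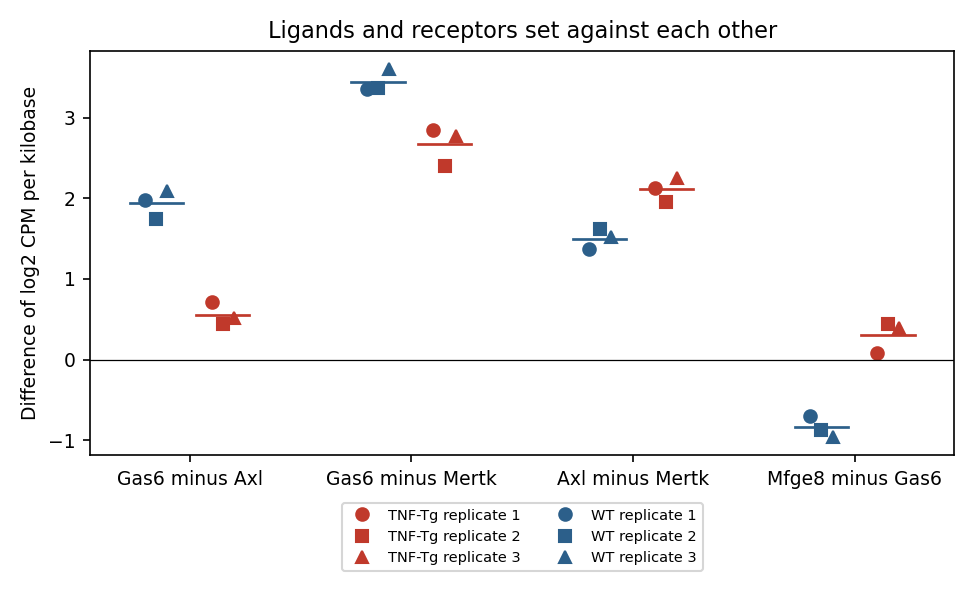
Differences of log2 CPM per kilobase of merged exons within each lung for 4 gene pairs, with 1 point per lung, symbols for the replicates and lines at the group means. Mfge8 minus Gas6 is below 0 in the 3 WT lungs and above 0 in the 3 TNF-Tg lungs, and Gas6 minus Axl is above 0 in all 6 lungs.

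The remaining members of the TAM system also changed. Tyro3, the third TAM receptor, had 158, 190.3 and 187 normalized counts in TNF-Tg lungs and 564, 516 and 570.5 in WT lungs, with no overlap. It fell by 1.62 on the log2 scale (standard error 0.13, adjusted p = 4.78e-05). Pros1, which encodes protein S, the ligand of Mertk and Tyro3, fell from 2277 ± 256 to 1404 ± 136 normalized counts (log2 fold change -0.70, standard error 0.12, adjusted p = 0.00172). Of the summed TAM receptor level per exonic length, Axl made up 67.7% to 71.8% in WT and 78.7% to 81.7% in TNF-Tg lungs. The share of Mertk was 23.4% to 26.2% in WT and 17.1% to 20.4% in TNF-Tg lungs, and that of Tyro3 was 4.84% to 6.25% and 0.894% to 1.17%. Mertk was thus higher in level and lower in share.

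Levels were compared between genes per length, as RPKM over the merged exons of GENCODE M21. In WT lungs the order was Gas6 (138 ± 5.65 RPKM), Cd36 (118 ± 15.4), Mfge8 (76.9 ± 4.14), Axl (36.1 ± 4.09), Stab1 (29.4 ± 2.28), Scarb1 (13.7 ± 0.151), Mertk (12.7 ± 0.770), Timd4 (0.727 ± 0.0883), Cd5l (0.451 ± 0.173) and Msr1 (0.247 ± 0.0474). Gas6 and Cd36 overlapped there, as did Cd5l and Msr1. In TNF-Tg lungs it was Mfge8 (139 ± 13.2 RPKM), Gas6 (113 ± 12.9), Axl (76.5 ± 6.98), Stab1 (58.4 ± 0.993), Cd36 (31.3 ± 2.20), Mertk (17.9 ± 3.55), Scarb1 (9.44 ± 0.391), Timd4 (8.53 ± 2.23), Msr1 (6.02 ± 0.165) and Cd5l (1.55 ± 0.152). Only Scarb1 and Timd4 overlapped among neighbours in that order. Cd36 moved from the second to the fifth place, and Mfge8 from the third to the first. In percentiles of the tested genes with a known exonic length, Msr1 went from 7.35 to 60.8, Timd4 from 18.7 to 69.0 and Cd5l from 12.9 to 31.1.

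The mix of the 4 scavenger receptors turned over. Cd36 made up 71.6% to 75.4% of their summed RPKM in WT lungs and 28.8% to 31.4% in TNF-Tg lungs. Stab1 made up 16.8% to 19.7% in WT and 54.3% to 56.3% in TNF-Tg lungs. Msr1 went from 0.123% to 0.198% up to 5.67% to 5.79%, while the share of Scarb1 overlapped between the groups, at 7.75% to 9.41% and 8.62% to 9.33%. The sum itself was 145 to 179 RPKM in WT and 102 to 108 RPKM in TNF-Tg lungs, so the total of the 4 per length was lower although 2 of them rose. Without correction for length the sums overlapped, at 811 to 843 CPM in TNF-Tg and 770.2 to 910.1 CPM in WT lungs. Among the 6 efferocytosis genes, Gas6 made up 50.6% to 54.2% of the sum in WT and 29.5% to 34.7% in TNF-Tg lungs, Mfge8 28.0% to 31.2% and 36.8% to 40.5%, and Axl 12.8% to 15.3% and 21.1% to 21.6%. Their sum was 262 to 267 RPKM in WT and 322 to 386 RPKM in TNF-Tg lungs.

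**Figure D3:**
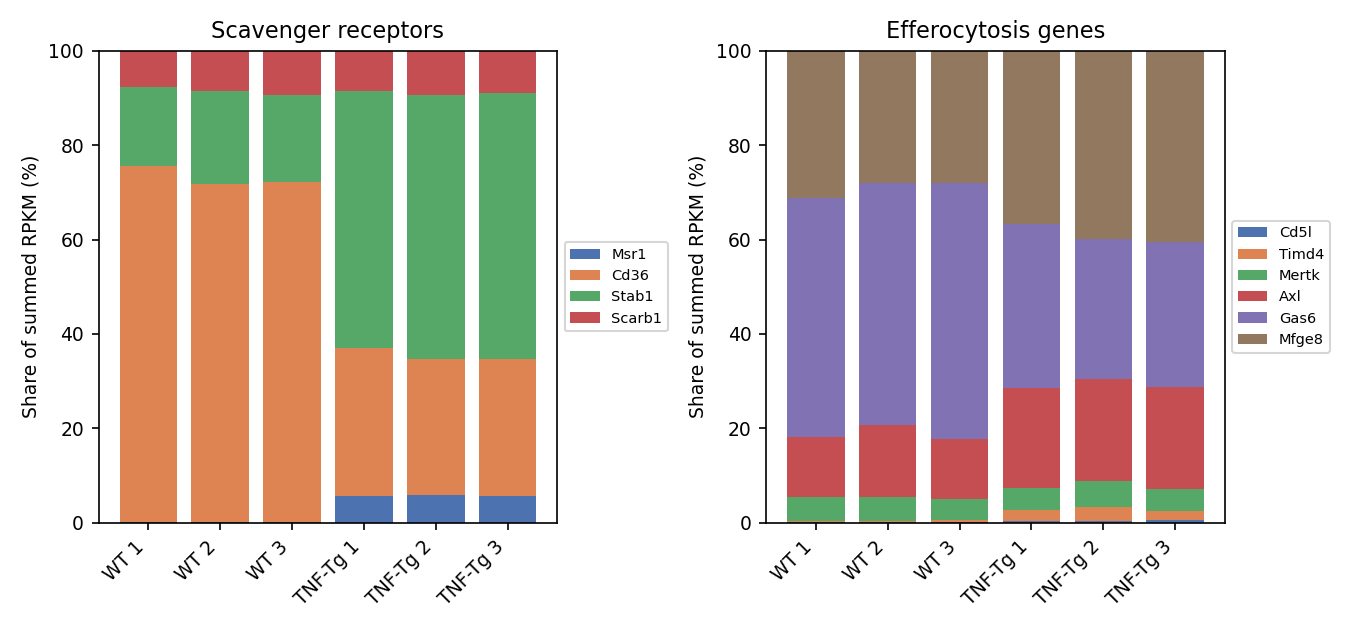
Share in percent of the summed RPKM of the 4 scavenger receptors and of the 6 efferocytosis genes, as 1 stacked bar per lung. Cd36 takes 71.6% to 75.4% of the scavenger receptor sum in WT lungs and 28.8% to 31.4% in TNF-Tg lungs, where Stab1 holds 54.3% to 56.3%.

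Markers of the cells that could carry these genes moved with genotype too. All 7 general macrophage markers were higher in TNF-Tg lungs (median 2.66 on the log2 scale), with a sum of 8374 to 9264 CPM against 2826 to 2874 CPM. Most of this sum was Lyz2, and without Lyz2 it was 1750 to 2109 CPM in TNF-Tg and 264 to 280 CPM in WT lungs. Of 10 alveolar macrophage markers, 3 were higher (Marco, Itgax and Chil3) and 5 were lower (Car4, Siglecf, Ear1, Krt79 and Plet1), and their sum was 2487 to 4032 CPM against 509 to 615 CPM, most of it Marco in TNF-Tg lungs. Of 8 markers of interstitial macrophages and monocytes, 7 were higher and Lyve1 was lower, with a sum of 1229 to 1572 CPM against 322 to 379 CPM. Car4 alone held 165 to 186 CPM in WT and 43.3 to 63.0 CPM in TNF-Tg lungs. Lyve1 held 114 to 189 CPM in WT and 13.7 to 20.0 CPM in TNF-Tg lungs. Whether macrophages or other cells carried Car4 and Lyve1 was not tested. All 8 endothelial markers were lower, with a sum of 1515 to 1709 CPM against 3301 to 3841 CPM. Markers of alveolar type 1 cells (5 of 5), fibroblasts (5 of 6), smooth muscle (4 of 4) and alveolar type 2 cells (3 of 6) were lower, and those of B and plasma cells (3 of 4) were higher. Over all genes tested, 24.0% were higher and 23.4% lower. The type 2 markers Sftpc, Sftpa1 and Lamp3 did not pass the cutoff. No list had a sum of 0 in any lung, and the part of these cells in the results was not tested.

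Relative to the mean of the general macrophage markers in the same lung, Msr1 was higher in TNF-Tg than in WT lungs by 2.06 on the log2 scale and Timd4 by 0.97. The log2 fold changes of the 7 markers ran from 1.10 (Fcgr1) to 3.33 (Cd68), below those of Msr1 (4.60) and Timd4 (3.55). For Cd5l the difference relative to these markers was -0.73, and the groups overlapped (two-sided exact permutation test, p = 0.2, adjusted p = 0.2). The other 7 genes were lower relative to the macrophage markers, Axl by a difference of -1.42, Stab1 of -1.51, Mfge8 of -1.65, Mertk of -2.03, Gas6 of -2.80, Scarb1 of -3.04 and Cd36 of -4.41. Each of the differences other than that of Cd5l had no overlap between the groups and p = 0.1, the smallest exact permutation p for 3 against 3 lungs, with adjusted p = 0.111 over the 10 genes. Of all 19199 genes tested, 94.6% were lower without overlap relative to these markers and 1.31% were higher, so the lower values of the 7 genes were shared by most genes.

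Relative to the mean of the 8 endothelial markers, a reference added after the data had been seen, Cd36 was lower in TNF-Tg lungs by a difference of -0.44 on the log2 scale. The 8 markers had log2 fold changes between -2.49 (Ramp2) and -0.56 (Pecam1), so Cd36, at -1.91, lay within their range, with Ramp2 and Tek (-1.94) lower. Scarb1, although lower in level, was higher relative to the endothelial markers by 0.93, and Gas6 by 1.17. The other 7 genes were higher by between 1.94 (Mertk) and 6.04 (Msr1). All 10 had no overlap and p = 0.1 in the two-sided exact permutation test, the smallest possible, also after adjustment. Most genes behaved likewise, since 85.4% of all genes tested were higher without overlap relative to the endothelial markers, and 2.25% were lower. Which cells carried the transcripts was not tested.

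**Figure D4:**
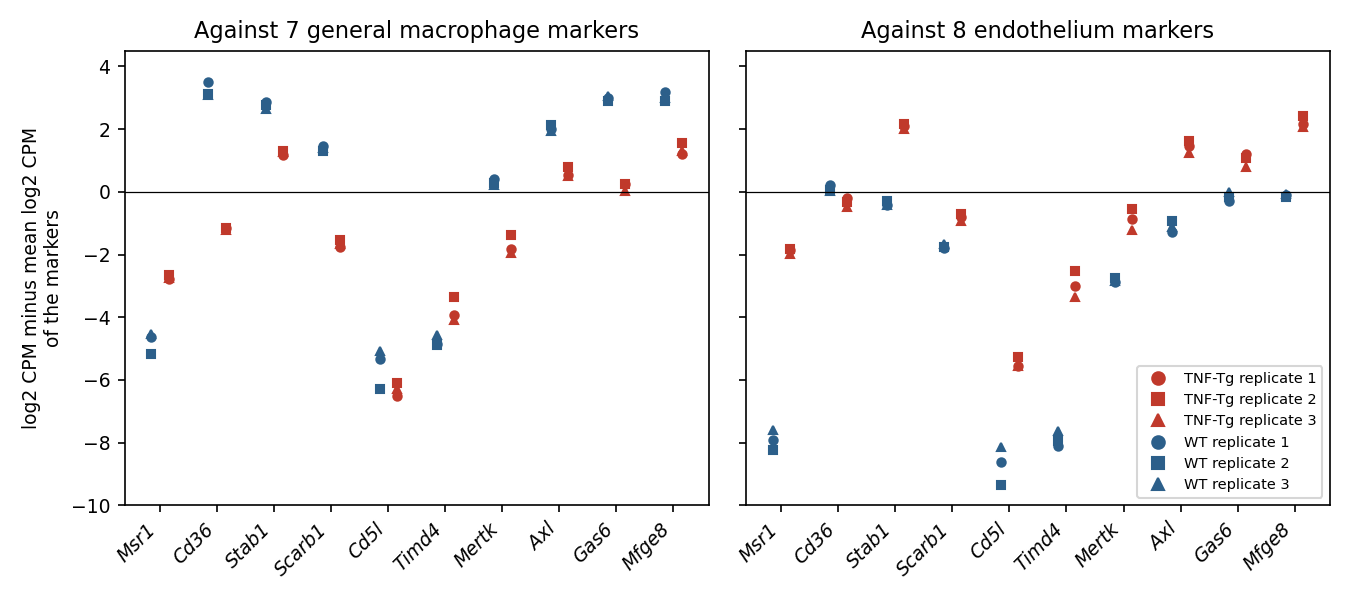
Log2 CPM of each of the 10 genes minus the mean log2 CPM of 7 general macrophage markers (left) or 8 endothelial markers (right), 1 point per lung. On the left Msr1 and Timd4 are higher in TNF-Tg lungs, Cd5l overlaps and the other 7 genes are lower, and on the right Cd36 alone is lower.

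Of 16 other scavenger receptors, all tested, 5 were higher and 5 were lower in TNF-Tg lungs, 62.5% in all against the background of 47.4%. Their median log2 fold change was -0.11. The 5 that rose were Marco, the class A receptor of alveolar macrophages (log2 fold change 7.10, standard error 0.58), Cd68, a lysosomal glycoprotein of macrophages (3.33, standard error 0.20), Cxcl16, a membrane-bound chemokine that binds oxidized lipoprotein (2.16), the mannose receptor Mrc1 (1.53) and the haemoglobin receptor Cd163 (1.48). Marco is the class A relative of Msr1, and its normalized counts were 67751 ± 24369 in TNF-Tg and 494 ± 341 in WT lungs. With 1 lung left out, its log2 fold change was between 6.76 and 7.81, the latter without WT replicate 3, the highest WT lung. Scara5, a class A receptor of stromal cells that binds ferritin, fell by 2.25 on the log2 scale, and Scarf2, Ssc5d and Colec12 had log2 fold changes of -0.95, -0.75 and -0.62. Megf10 also fell, from 18.1 ± 8.35 to 4.02 ± 2.65 normalized counts, and lost the call in 4 alternatives, among them without WT replicate 1 (adjusted p = 0.0674), without TNF-Tg replicate 2 (0.0592) and without both replicates 1 (log2 fold change -1.32 against -2.06, adjusted p = 0.122).

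Among 23 other genes of apoptotic cell recognition, 21 were tested, of which 11 were higher and 5 were lower (76.2% against the background of 47.4%, median log2 fold change 0.38). Trem2, a lipid receptor of macrophages, rose from 103 ± 24.9 to 3152 ± 726 normalized counts (log2 fold change 4.93, standard error 0.24), and the inhibitory phosphatidylserine receptor Cd300a had a log2 fold change of 2.79 (standard error 0.19). The 5 that fell were Tyro3 and Pros1, given above, Cd24a, a ligand of inhibitory Siglec receptors (-1.06), S1pr1, a receptor for sphingosine-1-phosphate (-0.94), and the integrin subunit Itgb3 (-0.90). Mfge8 binds integrins that hold the subunit Itgav with Itgb3 or Itgb5. Itgav and Itgb5 did not pass, at log2 fold changes of 0.20 and -0.06. Timd2 and Adgrb1 were not tested, with 6, 5 and 7 counts in TNF-Tg and 1, 0 and 2 in WT lungs for Timd2 and 3, 1 and 2 against 13, 9 and 6 for Adgrb1. The calls of 3 genes were not stable. That of Havcr1 was lost without TNF-Tg replicate 1 or 2 or WT replicate 1 or 3 (adjusted p = 0.0689 to 0.124, and 0.122 without both replicates 1). It was also lost with all 6 lungs by DESeq2 (adjusted p = 0.125) and with no filter on low counts (0.0648). That of Anxa1 was lost without TNF-Tg replicate 1 (adjusted p = 0.0575), WT replicate 1 (0.059) or both (0.179), and that of Cd300lf without TNF-Tg replicate 2 (0.0603), WT replicate 2 (0.0589) or both replicates 1 (0.0612).

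Of 14 genes of the engulfment machinery, 3 were higher and 2 were lower (35.7%, median log2 fold change 0.07), below the background of 47.4%. The 3 that rose were Dock2, a Rac activator of leukocytes (1.33, standard error 0.11), Rac2 (1.14, standard error 0.17), the Rac GTPase of blood cells, and Rhog (0.70). The 2 that fell were Arhgef16 (-0.86) and Rubcn (-0.32), which takes part in LC3-associated phagocytosis. The widely expressed Rac1, Dock1 and Elmo1 did not pass, with log2 fold changes of -0.16, 0.12 and 0.10. Without WT replicate 2 (adjusted p = 0.0601) or without both replicates 1 (0.152), Rubcn lost the call and 1 of the 14 was lower.

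Of 14 genes of lipid sensing and efflux, 6 were higher and 0 were lower (42.9% against the background of 47.4%, median log2 fold change 0.21, by edgeR's test, with 0 lower also at an unadjusted p under 0.05 and by DESeq2 and limma-voom). Apoe, the lipoprotein that carries cholesterol out of macrophages, had a log2 fold change of 2.27 (standard error 0.15), and Lipa, the lysosomal acid lipase, one of 1.95 (standard error 0.15). Mylip, which marks the low density lipoprotein receptor for degradation, had 0.64, and Npc2, a lysosomal cholesterol carrier, 0.43. Npc2 lost its call in 9 alternatives, among them each left-out lung other than TNF-Tg replicate 3 (adjusted p = 0.0578 to 0.193, and 0.429 without both replicates 1). Pparg, a nuclear receptor known to act on Cd36, did not differ beyond the spread of the lungs, at 241 ± 17.6 and 241 ± 32.9 normalized counts (log2 fold change 0.00, adjusted p = 0.997).

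Of 6 genes for feedback on and shedding of TAM receptors, 5 were tested, 4 were higher and 1 was lower (median log2 fold change 0.59), beside 24.0% higher and 23.4% lower over all genes. Adam17, a protease that sheds Mertk, rose from 1104 ± 118 to 3150.1 ± 359 normalized counts (log2 fold change 1.51, standard error 0.12, adjusted p = 4.56e-05), and Adam10, which sheds Axl, had a log2 fold change of 0.58 (standard error 0.11). The cytokine signalling inhibitors Socs1 (1.16) and Socs3 (0.59) were also higher. Twist2 was called lower (-1.22) although its groups overlapped. Twist1 was not tested, with 8, 9 and 11 counts in TNF-Tg and 4, 1 and 12 in WT lungs. The calls of Socs3 and Twist2 were lost without TNF-Tg replicate 1, WT replicate 1 or WT replicate 2. That of Socs3 was also lost without TNF-Tg replicate 3, and that of Twist2 without TNF-Tg replicate 2. With these lungs left out, the adjusted p was 0.0726 to 0.0815 for Socs3 and 0.0871 to 0.123 for Twist2. Without both replicates 1, the calls of Socs1 (adjusted p = 0.0745), Socs3 (0.162) and Twist2 (0.179) were lost. Protein shedding was not measured.

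**Figure D5:**
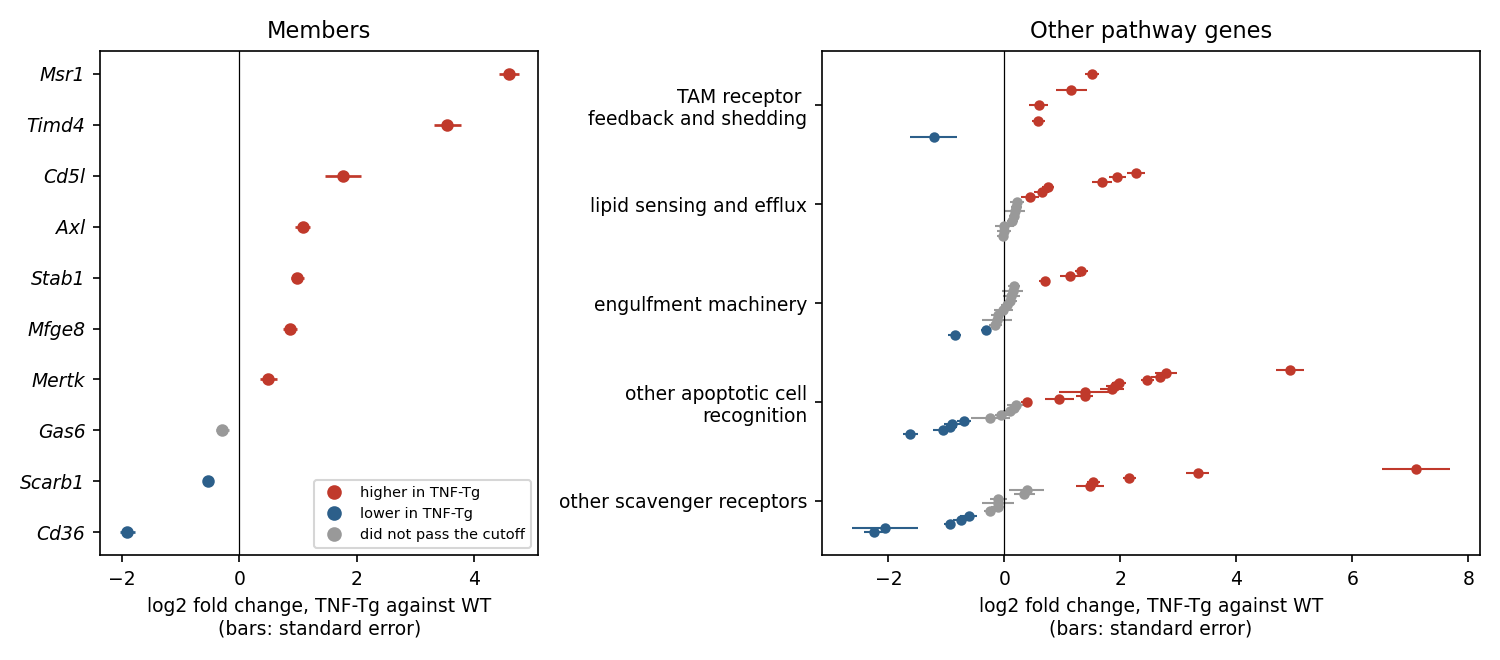
Log2 fold changes of TNF-Tg against WT lungs with standard errors as bars, for the 10 genes on the left and for the 5 lists of related genes on the right, with red for higher, blue for lower and grey for genes that did not pass the cutoff. Msr1 (4.60) and Timd4 (3.55) are the highest of the 10 and Cd36 (-1.91) the lowest, and Marco reaches 7.10 on the right.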

How the data were processed

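The authors prepared stranded poly(A) libraries, sequenced them in single-end reads of 100 bases and, per the labels' processing notes, used Trimmomatic 0.36, STAR 2.5.2b, featureCounts and GRCm38.p5. They deposited raw counts per gene symbol without normalization. The gene annotation and strand setting of the counting are not given in the sources used here. The 6 columns were matched to mice by name.

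Counts were tested on the whole table with edgeR 4.0.16 in R 4.3.3, by the quasi-likelihood test after filterByExpr and TMM normalization. The model held genotype alone, and p-values were adjusted after Benjamini-Hochberg, with a cutoff of 0.05. The standard error is the log2 fold change divided by the square root of F. Log2 CPM used a prior count of 2. Total counts were 25396923 to 32529408 per lung. P-values of edgeR's test weigh a difference against the spread between single mice. The smallest exact permutation p is fixed by the number of lungs. DESeq2 1.42.0, the tool of the study's methods, and limma-voom (limma 3.58.1) were alternatives, with other size factors, filters and dispersion, the replicate number as a block, lungs left out and a minimum absolute log2 fold change of 1. Lungs of equal replicate number, which are from different animals, had correlations of -0.24 to -0.0043 after centring within genotype. This check cannot exclude a pairing, and which mice were littermates of each other is not given in the sources used here.

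The 10 genes, lists and tests were chosen with earlier results of these data known. Named by rule were the 10 genes, Tyro3, Pros1, for each list the 2 highest and 2 lowest log2 fold changes past the cutoff and genes not tested, and the gene with the nearest pattern to each of the 10. Other genes were named after their values were seen. Lists overlap, with Cd68, Marco, Mrc1, Cd163 and Pparg also among macrophage markers. GENCODE M21 held 47240 of the 49568 symbols. No 100-base window of the 10 genes' transcripts occurred at another gene. Promoters were matched by symbol, 8 of 10, and motifs were searched on both strands. The programs were tested on simulated counts.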

Additional observations from a re-analysis of the deposited data

How the results depend on the processing

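The log2 fold changes of the 10 genes kept their direction in all 150 refits, and 142 kept their side of the threshold. The exceptions were Mertk, whose call was lost in 6, and Gas6, which passed in 2, all given above with their values. Leaving out 1 lung at a time gave 6 to 7 of the 10 genes higher and 2 to 3 lower, 1 to 2 engulfment genes lower and 0 to 1 TAM feedback gene lower. Of all 19607 to 19707 genes then tested, 3392 to 4571 were higher and 3734 to 4593 lower. When calls also needed a log2 fold change of at least 1 in size, 4 of the 10 genes were higher and 1 was lower, 2 other scavenger receptors and 2 recognition genes were lower, 3 lipid genes and 2 TAM feedback genes were higher, and 0 engulfment genes were lower. With this limit 22.5% of all genes tested passed in either direction, beside 47.4% without it. With the replicate block, 7 of the 10 genes were higher and 2 lower, 1 engulfment gene was lower and 0 TAM feedback genes were lower, and over all genes 3827 were higher and 3859 lower. With total counts only, 1 engulfment gene was lower, and over all genes 3884 were higher and 4201 lower. Without TNF-Tg replicate 1 and WT replicate 1, a setting chosen after seeing the data, 6 of the 10 genes were higher and 2 lower, 1 engulfment gene was lower, and 2 TAM feedback genes were higher and 0 lower. Of all 19440 genes tested in that setting, 2689 were higher and 3375 lower. The fold limit removes calls by construction. The causes of the other changes were not tested, and leaving out a lung alters the number and the set of lungs together. The 40 alternatives for the gene ratios and the 210 for values relative to markers kept their direction. With 2 against 2 lungs no exact permutation p can go below 0.333. Cd5l, at 17 to 102 counts per lung, was the gene most limited by depth.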

Other observations

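For each of the 10 genes, the gene with the most similar pattern over the 6 lungs was found as the one with the smallest root mean square difference of mean-centred log2 CPM among the 14990 tested genes whose mean log2 CPM was 1 or more. These are descriptions over 6 lungs of 2 genotypes, with no test. Nearest to Timd4 was Cd68, the lysosomal macrophage glycoprotein, with a difference of 0.105, and it rose 10.1-fold, beside 11.7-fold for Timd4. Nearest to Cd5l was Fcna, ficolin A, a lectin of macrophages (0.158), with 145 ± 11.4 normalized counts in TNF-Tg and 46.4 ± 12.1 in WT lungs. Msr1 was nearest to the chemokine pseudogene Ccl19-ps3 (0.182), whose reads may be shared with its near-identical relatives. The others were AI661453 for Cd36 (0.0468), Syt11 for Stab1 (0.0378), Map2k3 for Scarb1 (0.0218), Agtrap for Mertk (0.0392), Slc29a3 for Axl (0.0481), Gipc1 for Gas6 (0.0362) and Dmxl2 for Mfge8 (0.0425). Agtrap had its highest TNF-Tg value in replicate 2, as Mertk did, with 3001, 3804 and 2479 normalized counts in TNF-Tg lungs and 2185, 2248 and 2154 in WT lungs. Gipc1 passed the cutoff at a log2 fold change of -0.31 (adjusted p = 0.0271 from edgeR's test), while Gas6, at -0.29, did not. The call of Gipc1 was lost in 6 alternatives, 4 of them with 1 lung left out (adjusted p = 0.0514 to 0.069), and that of Agtrap with any lung but TNF-Tg replicate 3 left out (0.0534 to 0.0679).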
